A study of Rattus norvegicus with 47 samples.

Results

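Heat shock proteins and chaperones are described here through 10 genes of rat blood. They were chosen by name, with earlier results of these data known, and stand for the cytosol (Hspa1a, Hspa8, Hsp90aa1, Hsp90ab1, Hsph1 and Dnajb1), the mitochondria (Hspd1 and Hspe1) and the endoplasmic reticulum (Hspa5 and Hsp90b1). All 10 were found among the 20935 gene symbols of the table. Hspa8 was named by 2 probe sets, of which the brighter one was used, and each of the other genes by 1.

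The blood came from 8 male spontaneously hypertensive rats (SHR), 16 weeks old, in which a middle cerebral artery (MCA) was blocked by a silicon-coated thread under isoflurane. Each group is a time point: 0 h, drawn before anesthesia, and 1, 2, 3, 6 and 24 h after the occlusion, with 8 arrays each and 7 at 6 h, where 1 rat has no sample. The occlusion was transient, and reperfusion under a further anesthesia came between the 1 h and 2 h samples. No rats without surgery or with sham surgery were among the 6 groups. Stroke, reperfusion, anesthesia, surgery and repeated bleeding therefore cannot be told apart. Tail vein blood was drawn up to 6 h after brief warming of the rats under an infrared lamp, whereas the 24 h sample was taken by heart puncture after an isoflurane overdose, so that at 24 h time and site of collection cannot be told apart. Each array measured the RNA of the whole blood cell pellet of 1 sample, and a level is the log2 RMA signal of a probe set, given as the authors' mean ± SD over the arrays of a time point. Values of single arrays were not used, so the overlap between groups is judged from the SDs. Levels are compared between time points only, since the signals of different probe sets have no common scale.

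Chaperones bind proteins that are not folded and help them to reach or keep their shape. In the cytosol, proteins of the HSP70 family bind and release their clients in cycles driven by ATP, J proteins such as Dnajb1 bring clients to them, exchange factors such as Hsph1 reset them, and HSP90 proteins take over clients such as kinases and steroid receptors. The heat shock factor Hsf1 raises the transcription of many cytosolic and mitochondrial chaperones by binding heat shock elements, while the endoplasmic reticulum has its own response to unfolded proteins, run by Atf6, Xbp1 and Eif2ak3, which acts on Hspa5 and Hsp90b1.

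The promoter sequences of 4 of the genes are shown because heat shock elements and endoplasmic reticulum stress elements were found in different genes, and because the 4 include the genes with the largest change in the mitochondria (Hspe1), in the cytosol (Hsph1) and in the endoplasmic reticulum (Hspa5). Each run holds the 250 bases before the RefSeq start of the gene on the GRCr8 build, 5′ to 3′ on the strand of the gene, with capitals for the elements. The windows are chr9:64084077-64084326 for Hspe1, chr12:10427118-10427367 for Hsph1 and chr3:38452766-38453015 for Hspa5, all on the plus strand, and chr7:23012294-23012543 for Hsp90b1 on the minus strand.
Hspe1: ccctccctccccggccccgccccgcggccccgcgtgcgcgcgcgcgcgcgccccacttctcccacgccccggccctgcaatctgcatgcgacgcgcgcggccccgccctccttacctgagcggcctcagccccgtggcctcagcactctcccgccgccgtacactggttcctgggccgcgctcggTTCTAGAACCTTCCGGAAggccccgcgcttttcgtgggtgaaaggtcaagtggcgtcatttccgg
Hsph1: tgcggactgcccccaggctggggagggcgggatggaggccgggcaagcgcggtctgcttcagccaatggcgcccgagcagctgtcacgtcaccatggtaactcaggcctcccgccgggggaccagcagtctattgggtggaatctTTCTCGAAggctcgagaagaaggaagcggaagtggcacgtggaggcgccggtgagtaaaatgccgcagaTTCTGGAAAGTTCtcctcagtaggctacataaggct
Hspa5: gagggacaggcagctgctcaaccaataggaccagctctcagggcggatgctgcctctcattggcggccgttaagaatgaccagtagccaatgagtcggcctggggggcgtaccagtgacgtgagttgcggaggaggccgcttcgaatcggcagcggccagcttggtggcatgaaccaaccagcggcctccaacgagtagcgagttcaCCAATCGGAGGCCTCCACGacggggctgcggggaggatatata
Hsp90b1: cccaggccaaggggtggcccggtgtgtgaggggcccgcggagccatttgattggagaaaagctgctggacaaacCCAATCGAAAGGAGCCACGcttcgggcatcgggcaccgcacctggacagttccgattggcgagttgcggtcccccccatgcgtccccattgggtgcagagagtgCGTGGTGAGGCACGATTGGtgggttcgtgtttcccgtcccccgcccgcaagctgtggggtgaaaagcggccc

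Promoters were found for 9 of the 10 genes, all but Hsp90aa1, and were searched on both strands from 250 bases before to 50 bases after the start. A heat shock element in its short form has 2 inverted units (GAANNTTC or TTCNNGAA), and in its longer form a further inverted unit of GAA or TTC follows at the same spacing. The longer form was found in 4 of the 9, against 0.798% of 33469 rat promoters of the same length. Hspe1 had 2 overlapping matches, from -65 to -53 and from -60 to -48 bases from the start, which together make up the capitals above, and Hsph1 had 1 from -36 to -24. Hspd1 and Hspe1 are divergent neighbours whose windows overlap, and they share the same stretch, read in Hspd1 as matches from -242 to -230 and from -237 to -225. The fourth was Hspa8, with matches from -213 to -201 and from -55 to -43. The short form, which every longer match contains, was found in 5 of the 9, with Dnajb1 added, and in 15.9% of all promoters. The endoplasmic reticulum stress element (CCAAT and CCACG, parted by 9 bases of any kind) was found in Hspa5 from -43 to -25 and in Hsp90b1 from -176 to -158 and from -72 to -54, and in 0.0657% of all promoters. No match of either kind was found in the windows of Hspa1a and Hsp90ab1, which says only that these letters are not there. Matches describe letters and were not tested for binding.

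Of the 10 genes, 9 varied over the 6 time points (limma F-test, FDR under 0.05), and Hsp90aa1 was the one that did not pass, with an FDR of 0.25. Over all 27596 probe sets 55.5% passed, so variation as such was common in this blood. In whole blood, fewer cells of a type and less RNA per cell cannot be told apart. The study's stricter threshold on the unadjusted value of the F-test was also applied to the limma fit rebuilt here from means and SDs. At 5e-07, 13.5% of all probe sets passed in the rebuilt fit, and of the 10 genes Hsp90ab1, Hspe1 and Hspa5 remained. The study's own F-test passed fewer genes, and whether Hsp90ab1, Hspe1 and Hspa5 were among them was not examined. In the rebuilt fit their limma F-test FDRs, to which that threshold does not apply, were 2.27e-08, 5.95e-08 and 1.01e-06. These 3 belong to different compartments and had different courses, as the plot of levels by time shows.

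**Figure D1:**
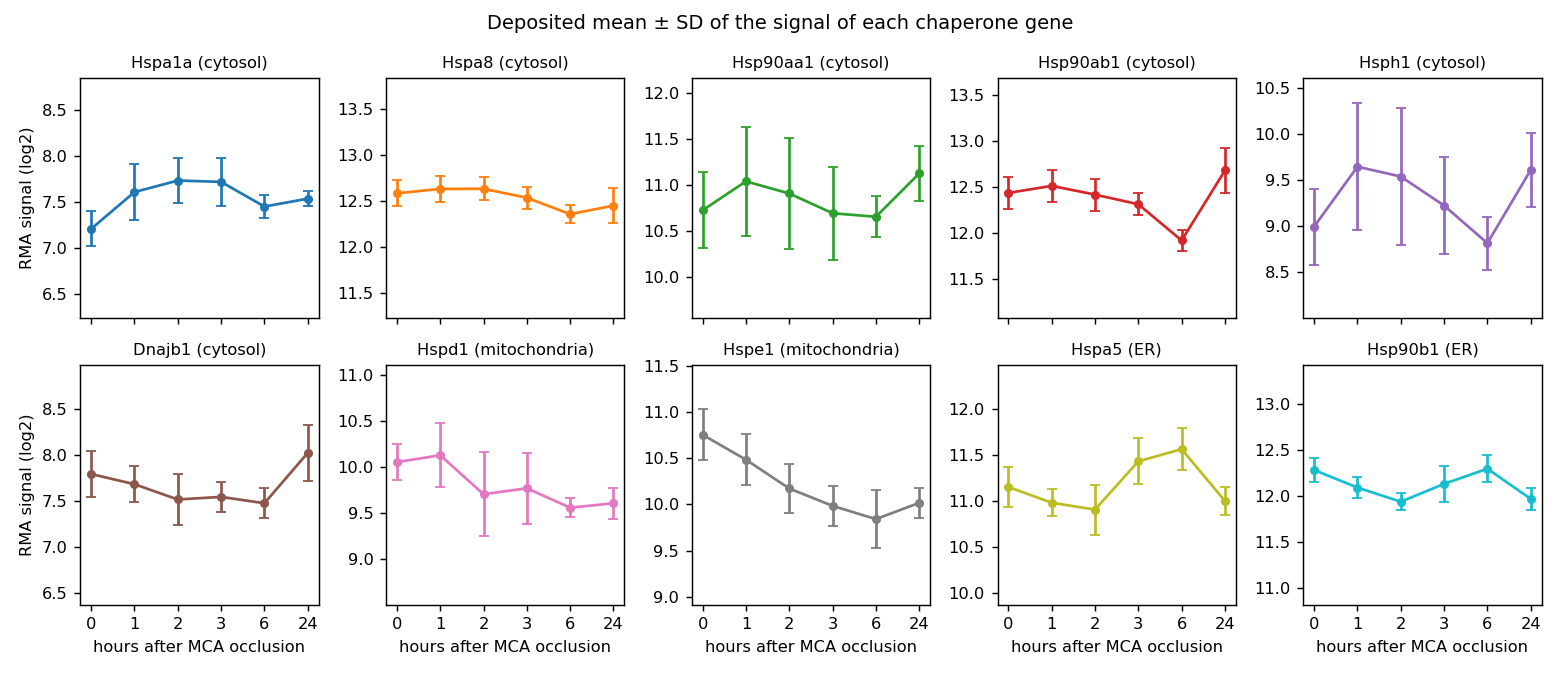
Level (log2 RMA signal, y axis) of each of the 10 genes at 0, 1, 2, 3, 6 and 24 h after MCA occlusion (x axis, time points evenly spaced and not to scale). Points are the authors' means over 8 arrays (7 at 6 h), bars are ± SD, and every panel spans the same number of log2 units. Hspe1 went down from 10.76 at 0 h to 9.84 at 6 h, Hsp90ab1 had its lowest mean at 6 h (11.91) and its highest at 24 h (12.67), and the bars of Hsph1 and Hsp90aa1 are the widest.

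Hspa1a, the classical inducible HSP70 (rn5 chr20:6956233-6961830, minus strand), was the gene that was higher than at 0 h most often. Its level was 7.20 ± 0.19 before the occlusion (0 h), then 7.60 ± 0.31 (1 h), 7.73 ± 0.24 (2 h), 7.71 ± 0.26 (3 h) and 7.45 ± 0.12 (6 h), and 7.53 ± 0.08 in the last sample (24 h). The 2 h and 3 h means lay more than 1 SD of either group above 0 h. It rose by 0.40 at 1 h (FDR = 0.00257), by 0.52 at 2 h, which is 1.44-fold (SE 0.11, FDR = 6.85e-05), and by 0.51 at 3 h (FDR = 9.97e-05). At 6 h the difference of 0.24 had an FDR of 0.0684, and at 24 h it was again called, at 0.33 (FDR = 0.0150). The 2 h and 3 h means differed by 0.01, less than their spread, and none of the steps after 1 h passed the test, the drop from 3 h to 6 h included (-0.27, FDR = 0.161). FDRs are Benjamini-Hochberg values over all probe sets, from a moderated limma fit unless another setting is named, and all 5 differences of a gene share the same 0 h samples.

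A probe set described as similar to HSP70B (LOC686035, rn5 chr13:94047722-94049861), looked at after the values of the family were seen, was higher at all 5 later time points. Its level was 6.51 ± 0.08 before the occlusion (0 h), then 7.22 ± 0.12 (1 h), 7.21 ± 0.17 (2 h), 7.17 ± 0.12 (3 h) and 7.01 ± 0.16 (6 h), and 6.85 ± 0.13 in the last sample (24 h). The rise was largest at 1 h, with 0.71 (FDR = 1.11e-11), and smallest at 24 h, with 0.34 (FDR = 1.55e-04), and the mean ± SD range of 0 h was below those of all later time points. HSP70 genes are close copies of each other, and how far their probes read each other's RNA was not tested.

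Hspa8, the HSP70 protein that cells make all the time, moved little. Its level was 12.58 ± 0.14 before the occlusion (0 h), then 12.63 ± 0.14 (1 h), 12.63 ± 0.13 (2 h), 12.54 ± 0.12 (3 h) and 12.36 ± 0.09 (6 h), and 12.45 ± 0.19 in the last sample (24 h). It fell at 6 h by 0.23 (SE 0.07, FDR = 0.0109), and no other time point was called; the 1 h difference of 0.05 became -0.0011 once the medians of the time points were set equal. The table places this probe set on rn5 chr11:17153188-17155188 and the other probe set of the same name on rn5 chr5:103064128-103066245, stretches of 2001 and 2118 bases, while RefSeq has the gene on chromosome 8. The second probe set changed by -0.23 at 6 h (FDR = 0.00889), and LOC689955, described as similar to heat shock protein 8, by -0.21 (FDR = 0.0189). A further probe set described in this way, LOC688932, was at -0.17 at 6 h and was not called (FDR = 0.0832), nor did it vary over the time points (limma F-test, FDR = 0.101). Which of these loci gave the signal of Hspa8 was not tested.

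Among the HSP90 proteins of the cytosol, the constitutive Hsp90ab1 (rn5 chr9:16706481-16712014) had a clear course and the stress-inducible Hsp90aa1 (rn5 chr6:144182004-144187540) did not. Hsp90ab1 was at 12.43 ± 0.17 before the occlusion (0 h), then 12.51 ± 0.17 (1 h), 12.41 ± 0.17 (2 h), 12.31 ± 0.12 (3 h) and 11.91 ± 0.11 (6 h), and 12.67 ± 0.24 in the last sample (24 h). At 6 h it had fallen by 0.52, or 1.43-fold (SE 0.09, FDR = 4.31e-06), and the mean ± SD of 6 h did not reach that of any other time point. The step from 3 h to 6 h was a drop (-0.39, FDR = 0.00372), over which 2.44% of all probe sets were called lower, and was followed by a rise of 0.76 from 6 h to 24 h (FDR = 2.40e-09). The level at 24 h was called above that at 0 h, by 0.24 (FDR = 0.0246), but not after the medians were set equal (FDR = 0.0697), after quantile normalization (0.0850) or with the spread of these 2 time points alone (0.0649).

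Hsp90aa1 was at 10.73 ± 0.41 before the occlusion (0 h), then 11.04 ± 0.59 (1 h), 10.91 ± 0.60 (2 h), 10.69 ± 0.51 (3 h) and 10.65 ± 0.22 (6 h), and 11.13 ± 0.30 in the last sample (24 h). Its means thus covered 0.47 log2 units, less than the SD of a single time point at 1, 2 and 3 h. The largest difference from 0 h was 0.40 at 24 h (95% interval -0.04 to 0.84, FDR = 0.163), an interval that leaves room for a sizeable rise.

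Hsph1, the HSP110 exchange factor of HSP70 (rn5 chr12:8423545-8442481), had the largest difference of the 6 cytosolic genes, with the widest spread. Its level was 9.0 ± 0.41 before the occlusion (0 h), then 9.65 ± 0.69 (1 h), 9.54 ± 0.75 (2 h), 9.22 ± 0.53 (3 h) and 8.82 ± 0.29 (6 h), and 9.61 ± 0.40 in the last sample (24 h). At 1 h it was higher by 0.65, or 1.57-fold (SE 0.25, FDR = 0.0402), a call lost after the medians were set equal (FDR = 0.0660) and in an ordinary test (0.0548). The mean ± SD ranges of 0 h and 1 h overlapped. The rise from 6 h to 24 h, by 0.79, was called (FDR = 0.0264), whereas the difference of 0.61 between 24 h and 0 h had an FDR of 0.0599, and was called after quantile normalization (0.0322) and with the spread of these 2 time points alone (0.0131). Dnajb1, the J protein best known for its induction by heat (rn5 chr19:35726333-35730060), was not called higher than at 0 h at any time point, except at 24 h after quantile normalization (0.31, FDR = 0.0396). It was at 7.79 ± 0.25 before the occlusion (0 h), then 7.68 ± 0.20 (1 h), 7.51 ± 0.27 (2 h), 7.54 ± 0.17 (3 h) and 7.47 ± 0.16 (6 h), and 8.02 ± 0.31 in the last sample (24 h). It was called lower at 2 h (-0.28, FDR = 0.0444) and at 6 h (-0.32, FDR = 0.0247), but neither was called after quantile normalization (FDR = 0.216 and 0.146), nor was that at 2 h in an ordinary test (0.0542) or with the spread of the 2 compared time points alone (0.0632). The rise from 6 h to 24 h was 0.55 (FDR = 3.55e-04), so that Hsp90ab1, Hsph1 and Dnajb1 were the 3 of the 10 genes that rose over that step, which 10.2% of all probe sets did.

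The spread itself set some genes apart, as the plot of the deposited SDs shows. At 2 h the SD was 0.75 for Hsph1, 0.60 for Hsp90aa1 and 0.46 for Hspd1, while the median over all probe sets was 0.14. These SDs stood at percentiles 99.9, 99.8 and 99.1 of all probe sets at that time. At 6 h the same genes had SDs of 0.29, 0.22 and 0.10, at percentiles 90.7, 79.5 and 16.0. Before the occlusion (0 h) their SDs already stood at percentiles 98.7, 98.8 and 77.2. The difference in spread between time points was not tested, and which rats were high or low was not analysed here.

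**Figure D2:**
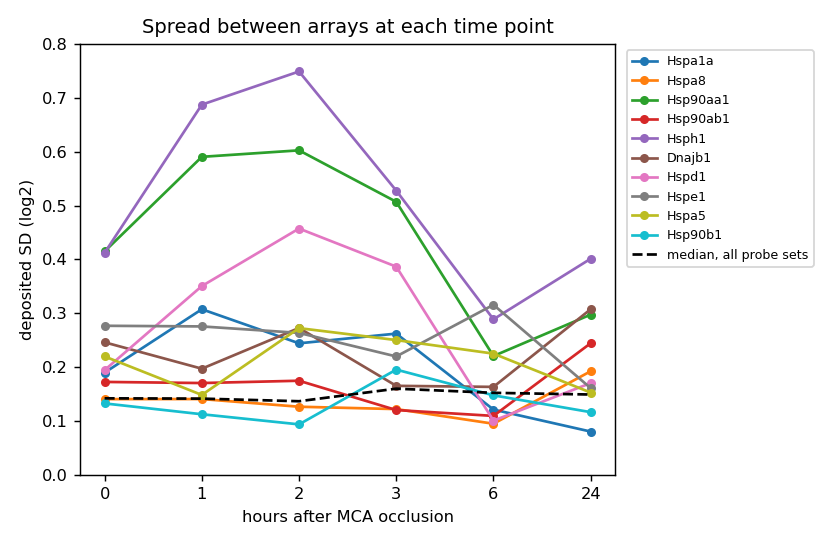
Deposited SD of the level (log2, y axis) of each of the 10 genes at each time point (x axis, evenly spaced, not to scale), over 8 arrays and 7 at 6 h. The dashed line is the median SD of all probe sets, and the lines of Hsph1 and Hsp90aa1 peak at 2 h with 0.75 and 0.60.

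The mitochondrial pair works together, Hspe1 (chaperonin 10) being the lid of the folding chamber that Hspd1 (HSP60) forms, and both were lower at 6 h and 24 h. Hspe1 (rn5 chr9:61372462-61375743) was at 10.76 ± 0.28 before the occlusion (0 h), then 10.49 ± 0.28 (1 h), 10.17 ± 0.26 (2 h), 9.99 ± 0.22 (3 h) and 9.84 ± 0.32 (6 h), and 10.02 ± 0.16 in the last sample (24 h). From 2 h on, each mean lay more than 1 SD of either group below that of 0 h. It fell by 0.58 at 2 h (FDR = 1.30e-04), by 0.77 at 3 h (FDR = 1.24e-06), by 0.92 at 6 h (SE 0.13, FDR = 6.31e-08) and by 0.74 at 24 h (FDR = 9.05e-06). At 6 h this was 1.89-fold, the largest difference of the 10 genes. No single step between neighbouring time points passed the test, and the decline is seen only over several of them.

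Hspd1 (rn5 chr9:61361746-61372172) was at 10.05 ± 0.19 before the occlusion (0 h), then 10.13 ± 0.35 (1 h), 9.70 ± 0.46 (2 h), 9.77 ± 0.39 (3 h) and 9.56 ± 0.10 (6 h), and 9.60 ± 0.17 in the last sample (24 h). It was lower by 0.49 at 6 h, or 1.41-fold (SE 0.15, FDR = 0.00747), and by 0.45 at 24 h (FDR = 0.0177, and 0.0546 after quantile normalization). At 2 h the difference was -0.35 (FDR = 0.0528), and it was called with equal medians (0.0387) and without the lowest 25% of probe sets (0.0459). The SD of that time point, 0.46, was the widest of the 6.

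Of the endoplasmic reticulum genes, Hspa5 was higher than at 0 h at 3 h and 6 h, and Hsp90b1 was lower at 1, 2 and 24 h. Hspa5 (BiP, the HSP70 of this compartment, rn5 chr3:19157914-19162277) was at 11.15 ± 0.22 before the occlusion (0 h), then 10.98 ± 0.15 (1 h), 10.90 ± 0.27 (2 h), 11.43 ± 0.25 (3 h) and 11.56 ± 0.22 (6 h), and 11.0 ± 0.15 in the last sample (24 h). The 3 h and 6 h means were the 2 highest, and each was more than 1 SD above those of 1 h, 2 h and 24 h. It rose by 0.52 from 2 h to 3 h (SE 0.10, FDR = 0.00102), a step that 1.9% of all probe sets were called higher over, and fell by 0.56 from 6 h to 24 h (FDR = 8.52e-05). Against 0 h it was higher by 0.28 at 3 h (FDR = 0.0261, and 0.0612 after the medians were set equal) and by 0.41 at 6 h, or 1.33-fold (FDR = 0.00192), while the 2 h difference of -0.25 had an FDR of 0.0554 (0.0346 with equal medians and 0.0395 after quantile normalization).

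Hsp90b1 (GRP94, the HSP90 of the same compartment, rn5 chr7:27345732-27359807) was at 12.28 ± 0.13 before the occlusion (0 h), then 12.09 ± 0.11 (1 h), 11.94 ± 0.09 (2 h), 12.13 ± 0.20 (3 h) and 12.30 ± 0.15 (6 h), and 11.97 ± 0.12 in the last sample (24 h). It fell by 0.19 at 1 h (FDR = 0.0264), by 0.34 at 2 h (SE 0.07, FDR = 6.67e-05) and by 0.31 at 24 h (FDR = 5.22e-04). At 6 h it differed by 0.01 from 0 h (95% interval -0.13 to 0.16), and by -0.0167 once the medians were set equal. It then fell from 6 h to 24 h by 0.33 (FDR = 5.17e-04), so that both genes of this compartment, and no other of the 10, were called lower over that step, against 8.68% of all probe sets.

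Counted over the 10 genes at 1 h, 2 were called higher (21.7% of all probe sets) and 1 lower (15.4%), with 37.1% of all probe sets called in either direction. At 2 h 1 gene was higher (21.7% of all) and 3 were lower (18.6%, either way 40.4%). The 3 h sample had 2 genes higher (27.3%) and 1 lower (19.2%, either way 46.5%). By 6 h, 1 gene was higher (22.5%) and 5 were lower (19.3%, either way 41.8%), the latter being Hspa8, Hsp90ab1, Dnajb1, Hspd1 and Hspe1. The 24 h sample had 2 higher (17.4%) and 3 lower (13.9%, either way 31.2%). Some of these counts depend on the setting: 5 genes were lower at 2 h with equal medians and also without the lowest 25% of probe sets, and 3 were lower at 3 h with equal medians. With equal medians 1 gene was higher at each of 1 h, 3 h and 24 h, and 2 were lower at 1 h. The ordinary test had 1 higher at 1 h, and quantile normalization had 2 higher at 6 h. With the spread of the 2 compared time points 2 were lower at 3 h and 2 higher at 6 h. Calls were also gained by Hspe1 at 1 h (lower) and by Dnajb1 and Hsp90b1 at 3 h (lower) with equal medians, and by Hspa1a at 6 h and Dnajb1 at 24 h (both higher) after quantile normalization, with FDRs from 0.0246 to 0.0405. Between neighbouring time points after 1 h, none of the 10 changed from 1 h to 2 h (8.78% of all probe sets did), 1 from 2 h to 3 h (3.53%), 1 from 3 h to 6 h (4.78%) and 5 from 6 h to 24 h (18.9%). The median change of the 10 genes was -0.20 at 6 h against 0.05 over all probe sets, and 0.06 at 1 h, where it was 0.05 over all.

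**Figure D3:**
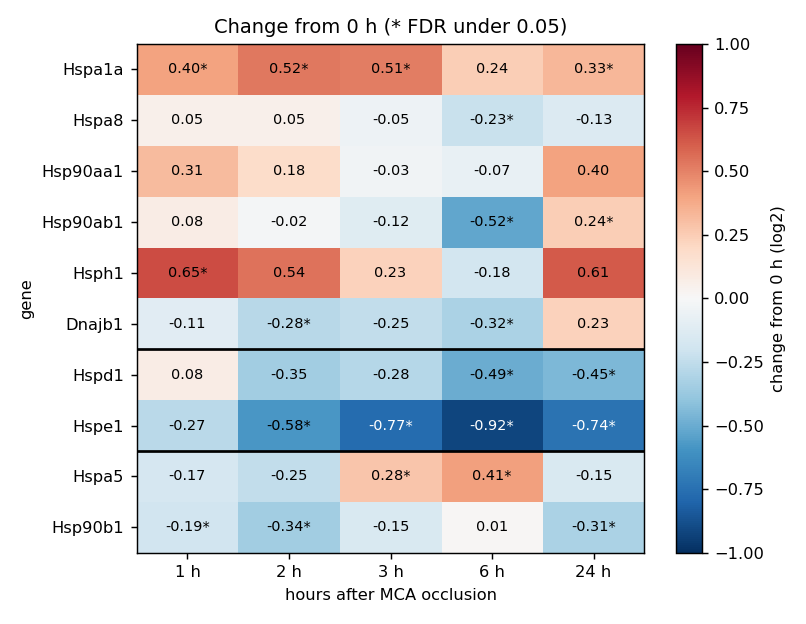
Difference from 0 h (log2, colour and printed value) of the 10 genes (rows; lines part cytosol, mitochondria and endoplasmic reticulum) at 1, 2, 3, 6 and 24 h (columns); stars mark an FDR under 0.05. Hspa1a is positive throughout, Hspe1 negative throughout with -0.92 at 6 h, and Hspa5 changes from -0.25 at 2 h to 0.41 at 6 h; the stars of Hsph1 at 1 h, Hsp90ab1 and Hspd1 at 24 h, Hspa5 at 3 h and Dnajb1 at 2 h and 6 h are lost under some other setting.

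The profiles of the 10 genes, taken as their 5 differences from 0 h, were compared by Euclidean distance. The closest pair was Hsp90ab1 and Dnajb1 (0.396), and the farthest was Hspa1a and Hspe1 (2.41). Among 20069 genes, the nearest to Hspe1 were Sidt1 (0.0922), Nkg7, a granule protein of natural killer cells (0.115), and Cd247, the zeta chain of the T cell receptor (0.163). Nearest to Hspa5 were Ero1a, an oxidase of the endoplasmic reticulum (0.170), Preb (0.204) and Abcg2 (0.220), and nearest to Hsph1 were Tmem63b (0.140), Dmtn, a protein of the red cell membrane skeleton (0.244), and Abtb1 (0.265). Likeness of these 5 values describes the means only.

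Marker genes of the blood cell types changed over the same hours, while cell numbers were not among the data. All 6 B cell markers were lower at every later time point (13.9 to 19.3% of all probe sets), with a median change of -2.13 at 3 h. Their summed linear signal ranged from 1717 at 3 h to 7623 at 0 h. Such a sum follows mainly the brightest probe sets of a list, since probe sets have no common scale. After quantile normalization 4 of the 6 B cell markers were called lower at 24 h. All 6 T cell markers were lower too (5 of 6 at 1 h after quantile normalization), with a median of -1.25 at 6 h and a sum from 3432 at 6 h to 8323 at 0 h. NK cell markers had a median of -0.81 at 6 h, with 4 of 5 called lower (19.3% of all probe sets) and 1 higher (22.5%), and a sum from 2955 at 24 h to 5411 at 1 h. All 6 neutrophil markers were higher throughout (17.4 to 27.3% of all probe sets), with a median of 1.65 at 6 h and a sum from 12423 at 0 h to 34373 at 6 h. Monocyte markers were split, with 3 of 5 lower (Cx3cr1 by 1.45 and Csf1r by 0.87 at 3 h) and 2 higher (Cd14 by 1.84 at 3 h) at 2, 3 and 6 h, where 18.6 to 19.3% of all probe sets were lower and 21.7 to 27.3% higher, and their sum ranged from 9580 at 24 h to 11053 at 0 h. At most 3 of 5 platelet markers (at 24 h, 17.4% of all probe sets) and 1 of 5 erythroid markers (at 1 h and 24 h, 21.7% and 17.4%) were called higher and at most 2 erythroid markers lower (at 6 h, 19.3%, and 3 with equal medians), with sums from 17614 to 20040 and from 34495 to 39383. Whether these marker changes reflect cell numbers was not tested, nor was their part in the chaperone values. Heart muscle markers had a sum over 5 genes of 414 at 0 h, 447 at 3 h in tail vein blood and 445 at 24 h in heart blood. At both of these later time points 3 of the 5 were called higher (27.3% of all probe sets at 3 h and 17.4% at 24 h), with 2 at each after the medians were set equal and 1 at each after quantile normalization.

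The wider chaperone system was read through 10 lists of 88 other genes, 83 of which were measured. At 1 h 7 of them were called higher (21.7% of all probe sets) and 33 lower (15.4%), and at 2 h 8 were higher (21.7%) and 42 lower (18.6%). Later, 13 were higher (27.3%) and 34 lower (19.2%) at 3 h. The 6 h sample had 16 higher (22.5%) and 40 lower (19.3%), and that of 24 h had 9 higher (17.4%) and 33 lower (13.9%). Calls of lower expression were thus more frequent than those of higher expression at each time point, while over all probe sets higher calls were the more frequent ones. The median change of the 83 genes was -0.21 at 2 h and -0.25 at 6 h, against 0.05 at both over all probe sets.

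The chaperonin TRiC, which folds actin and tubulin in the cytosol, was lower in every subunit. All 8 subunits were lower at 2 h (18.6% of all probe sets), 3 h (19.2%) and 6 h (19.3%), 6 of them at 1 h (15.4%) and 7 at 24 h (13.9%), with a median change of -0.63 at 2 h and -0.65 at 6 h. After quantile normalization 7 were called lower at 3 h and 4 at 24 h, with all 8 still lower at 2 h and 6 h. Tcp1, its first subunit, went from 9.99 ± 0.25 at 0 h to 9.12 ± 0.21 at 6 h, a fall by 0.87 (SE 0.13, FDR = 2.23e-07). At 2 h the 8 subunits lay between -0.79 and -0.52. Of the 4 prefoldin genes measured, which hand clients to TRiC, 2 were lower at 6 h (19.3% of all probe sets, and 1 of the 4 after quantile normalization), and Pfdn1 was lower by 0.41 at 3 h (FDR = 0.0142, and 0.0799 after quantile normalization).

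**Figure D4:**
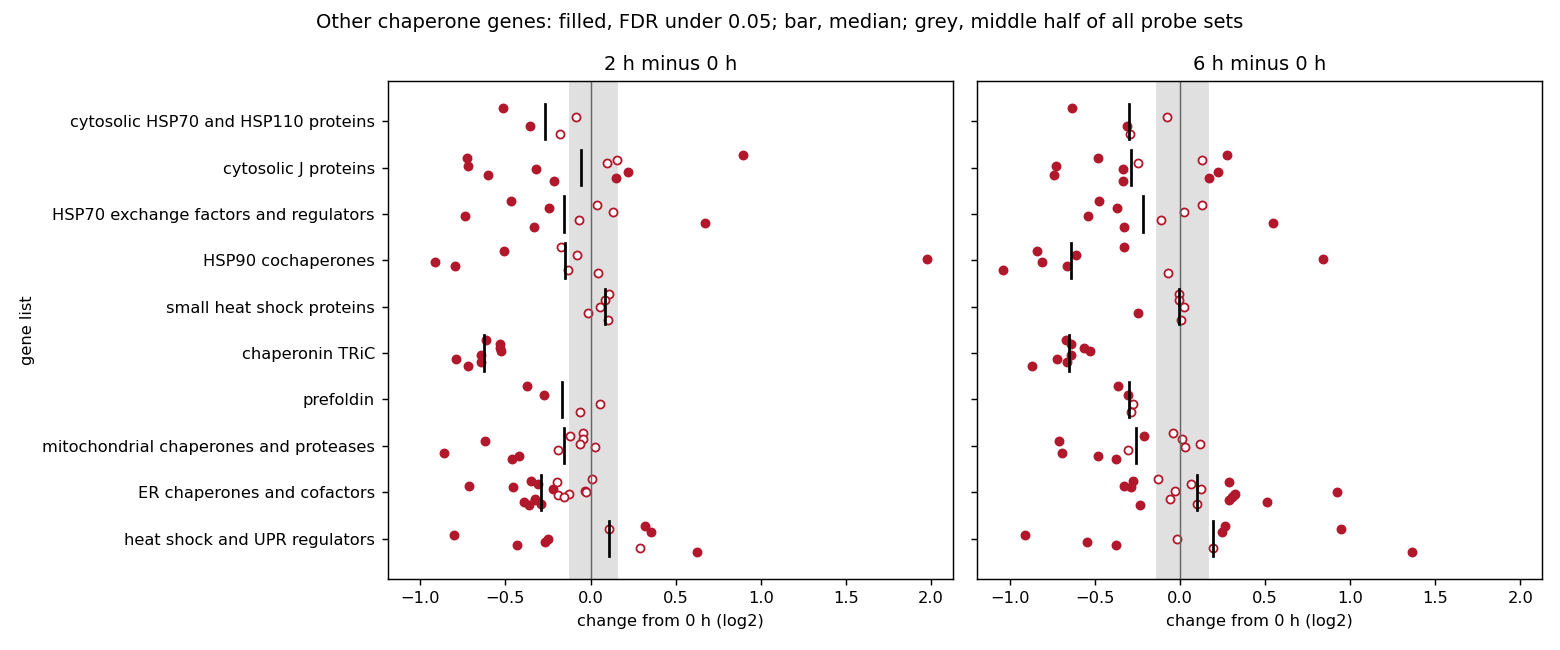
Difference from 0 h (log2, x axis) at 2 h and at 6 h of the 83 other chaperone genes by list (y axis). Filled points have an FDR under 0.05, open points do not, black bars are list medians, and the grey band holds the middle 50% of all probe sets. The 8 TRiC genes are all filled and left of the band, and the endoplasmic reticulum list has a median of -0.29 at 2 h and 0.10 at 6 h.

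The partners of HSP90 moved in opposite directions. Fkbp5, a cochaperone of the glucocorticoid receptor and a known target of glucocorticoids, rose within 1 h from 8.56 ± 0.22 to 10.12 ± 0.10 and reached 10.54 ± 0.15 by 2 h, higher by 1.98 or 3.94-fold (FDR = 4.72e-21), and was still higher by 0.67 at 24 h. Stip1, which links HSP70 to HSP90, fell from 10.30 ± 0.38 at 0 h to 9.26 ± 0.17 at 6 h, by 1.04 (FDR = 8.09e-06). After quantile normalization Stip1 was also called higher at 1 h. Ppid, a peptidyl-prolyl isomerase, was lower by 0.92 at 2 h and Chordc1 by 0.91 at 3 h. Ptges3 (p23) was lower by 0.84 at 3 h, its largest fall, and by 0.74 at 24 h. Ppid, Chordc1 and Ptges3 were each called lower at all 5 time points. In all, 1 of 8 was higher (22.5% of all probe sets) and 6 were lower (19.3%) at 6 h, with a median of -0.64.

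Among the partners of HSP70, genes were called in both directions. Dnaja1, a J protein of the cytosol, rose within 1 h from 11.60 ± 0.23 to 12.26 ± 0.17 and reached 12.49 ± 0.15 by 2 h, higher by 0.90 or 1.86-fold (FDR = 1.30e-11), at a time when the difference of Dnajb1 was -0.28. Of the 10 J proteins listed, 3 were higher (21.7% of all probe sets) and 5 lower (18.6%) at 2 h. The exchange factor Bag5 was lower by 0.74 at 2 h (FDR = 2.35e-07). St13, which binds HSP70, was called higher at all 5 time points. Its rise was largest at 2 h, by 0.67 (FDR = 8.95e-10), and was 0.52 at 24 h (FDR = 1.47e-06). Hspa14, the most changed of 4 measured relatives of HSP70, was lower by 0.63 at 6 h (FDR = 3.82e-05). Of 5 small heat shock proteins, which keep unfolded proteins from clumping, 1 was higher at 3 h (27.3% of all probe sets) and 1 lower at 6 h (19.3%), the latter being Hspb6, by 0.25 (FDR = 0.0156), and neither was called after quantile normalization.

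Other mitochondrial chaperones and proteases were lower in part. At 6 h 5 of 10 were called lower (19.3% of all probe sets) and none higher (22.5%), with a median of -0.26. Hspa9, the mitochondrial HSP70, went from 9.60 ± 0.20 at 0 h to 8.74 ± 0.23 at 2 h, a fall by 0.86 (FDR = 4.84e-08). Dnaja3, its J protein, Lonp1, a protease of the matrix, and Trap1, the mitochondrial HSP90, were lower at all 5 later time points, as was Hspa9, although Lonp1 kept 3 of its 5 calls after quantile normalization. At 24 h 2 of the 10 were higher (17.4% of all probe sets), Grpel2 and Clpx, the latter not with equal medians (FDR = 0.0803).

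The cofactors of the endoplasmic reticulum were called in different directions at different times. None of the 17 was higher (21.7% of all probe sets) and 10 were lower (18.6%) at 2 h. By 6 h, 7 were higher (22.5%) and 4 lower (19.3%, and 2 of the 17 after quantile normalization), whereas in the 24 h sample none was higher (17.4%) and 7 were lower (13.9%). The list's median went from -0.29 (2 h) to 0.10 (6 h) and back to -0.14 (24 h), with the same signs after the medians were set equal and after quantile normalization, although the latter moved it to -0.19 at 2 h and 0.18 at 6 h. The 7 genes higher at 6 h were Hspa13, Pdia6, Hyou1, Manf, P4hb, Creld2 and Pdia4, of which Hspa13 rose most, by 0.92 (FDR = 3.19e-06). Pdia4 and Pdia6, which make disulfide bonds, had been lower at 2 h by 0.33 (FDR = 0.0617 after quantile normalization) and 0.39 and were higher at 6 h by 0.29 and 0.51, and these 2 were the only ones of the 17 called both lower at 2 h and higher at 6 h. Canx, a lectin chaperone, was lower at all 5 time points, and Dnajb9, Pdia3, Sil1, Dnajb11, Dnajc10 and Sdf2l1 were called lower at 2 or more time points and higher at none. After quantile normalization Dnajc10 and Sdf2l1 kept 1 such call each.

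Of the 9 regulators 4 were called higher (22.5% of all probe sets, and 3 of the 9 with equal medians) and 3 lower (19.3%) at 6 h. Xbp1 was at 8.74 ± 0.19 before the occlusion (0 h), then 8.70 ± 0.20 (1 h), 9.37 ± 0.14 (2 h), 10.14 ± 0.19 (3 h) and 10.11 ± 0.19 (6 h), and 8.83 ± 0.23 in the last sample (24 h). It was thus higher at 2, 3 and 6 h, by 1.40 or 2.63-fold at 3 h (FDR = 4.59e-17), and at 24 h the difference from 0 h was 0.09. Atf6 was higher by 0.43 at 3 h and by 0.95 at 6 h (FDR = 2.02e-17), with a difference of 0.07 at 24 h. Eif2ak3 (PERK) was lower at each time point, by 0.91 at 6 h (FDR = 4.40e-12). The heat shock factors Hsf1 and Hsf2 were also lower at each of the 5 time points, Hsf1 by 0.55 and Hsf2 by 0.38 at 6 h, but after quantile normalization Hsf1 kept 2 of its 5 calls, those at 3 h and 6 h. Atf4, a transcription factor of the integrated stress response, was higher at all 5 time points, by 0.32 at 2 h (FDR = 3.35e-06). Ddit3 (CHOP) and Ppp1r15a (GADD34), which act in the same response, were higher at 2 time points each (1 each with equal medians, where Ddit3 was called lower at 24 h, and 2 and 3 after quantile normalization). Ern1 (IRE1), the sensor that splices Xbp1 messenger RNA, was lower at 4 time points, by 0.25 at 24 h (FDR = 0.00810), and at none after quantile normalization. For the array, these are levels of messenger RNA, and neither splicing of Xbp1 nor activity of any factor was measured.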

How the data were processed

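Blood of 8 rats was measured at 6 time points on 47 Affymetrix RaGene arrays. The authors deposited 1 table of 27596 probe sets, with the mean log2 RMA signal of each time point and, as another column, its SD on the same scale. Symbols and gene positions are the table's own (rn5). A further 47 single-array columns, whose names match no sample label, were not used, nor were the authors' comparison columns (fold changes, p-values, FDRs and F-tests). The submitters' processing notes name limma. A cell-means model was rebuilt from the authors' mean, SD and number of arrays per time point and moderated with limma 3.58.1 (R 4.3.3) over all probe sets. Each time point was compared with 0 h and with its neighbour, with Benjamini-Hochberg adjustment over all probe sets and a threshold of 0.05. The fit takes arrays as independent, although the same rats were sampled repeatedly. Means rest on 7 or 8 arrays, which limits their precision. In simulated data for 2 h against 0 h with 27596 probe sets, 95 of 100 changes of 0.5 and 99 of 100 of 1 were recovered. Of the calls, 5.37% were false. The simulation held far fewer changes than the 40.4% of probe sets called at 2 h in the data. Its rates may therefore not carry over to the data.

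The members and lists were chosen with earlier results of these data known. All 10 members are named; from the lists, the 2 largest rises and falls at each time point and the most changed gene of each list; and, for the most changed member of a compartment, the 3 genes nearest in profile. Genes named beyond this rule were chosen after their values were seen. Not found among the symbols were Hspa1b, Hspa1l, Ahsa1, Pfdn4, Vbp1 and the marker Myl2. Promoters are from RefSeq (GRCr8), which was not mixed with rn5. Alternatives were other scalings between time points, a filter on low signals, other variance estimates and the mean over all probe sets of a symbol.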

Additional observations from a re-analysis of the deposited data

How the results depend on the processing

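The 50 changes of single genes kept their direction and their side of the threshold in 40 cases after the medians of the time points were set equal, in 41 after quantile normalization of the means, in 48 without the lowest 25% of probe sets and in 48 in an ordinary test, in all 50 with an intensity trend and with the mean over all probe sets of a symbol, and in 45 with the spread of the 2 compared time points only. With equal medians, 1 gene was higher and 2 were lower at 1 h, 5 were lower at 2 h, 1 was higher and 3 were lower at 3 h, and 1 was higher at 24 h. After quantile normalization 2 were higher at 6 h. Without the lowest probe sets 5 were lower at 2 h, and in the ordinary test 1 was higher at 1 h. With the spread of the 2 compared time points 2 were lower at 3 h and 2 higher at 6 h. The sign turned for 3 small differences, none of them called: with equal medians for Hspa8 at 1 h (-0.0011) and Hsp90b1 at 6 h (-0.0167), and after quantile normalization for Hsp90aa1 at 3 h (0.0093). The cause of these differences was not tested. The counts of steps, of genes that varied and of the 83 pathway genes together stayed within 1.5 times. Of 100 counts of single pathway lists, 7 moved by more with equal medians and 17 after quantile normalization, and of 80 counts of marker lists 7 and 9 did; the quantile counts and those of the markers were added after seeing the data. No paired analysis was possible because the names of the single-array columns give no rat or time point and columns were not assigned by their order, so neither the rat as a block nor the removal of single arrays was run. Detection above background could not be judged from the means, and reading of related genes by the same probes was not tested.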
